A study of Mus musculus with 8 samples.

Results

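The genes described here are 59 factors of ribosome assembly and ribosomal RNA processing, chosen by symbol for their function, with earlier results of these data known: components of the small-subunit processome, proteins of the small nucleolar ribonucleoproteins (snoRNPs), nucleolar chaperones and factors of large-subunit assembly. All 59 were found among the 54532 genes of the count table, and all 59 passed the filter on low counts, which left 13560 genes for testing. RNA-Seq had been performed on 2 fractions of bone marrow LSK cells (lineage-negative, c-Kit-positive, Sca-1-positive), with 4 libraries of *Zeb1*-/- EpCAM+ cells and 4 libraries of *Zeb1*-/- EpCAM- cells, sorted by the surface protein EpCAM. The donors were C57BL/6 mice of 8 to 12 weeks, 4 mice per genotype by the labels, in which *Zeb1* had been deleted through Mx1-Cre, a recombinase under an interferon-responsive promoter that pIpC switches on, and cells were collected 14 days after pIpC ended. By the labels both fractions come from mice with this deletion and pIpC exposure, no library comes from a control mouse, and Mx1-Cre also acts in cells outside the blood system. The comparison asks how the transcriptome of EpCAM+ cells differs from that of EpCAM- cells within the deleted LSK compartment.

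Ribosomes are built in the nucleolus. RNA polymerase I transcribes a long precursor RNA that is cleaved, chemically modified by snoRNPs and folded while assembly factors join it, first in a large particle called the small-subunit processome and in parallel in precursors of the large subunit, and late factors then release the 40S and 60S subunits for use in the cytoplasm. The demand for these factors is known to follow growth and division, and blood stem cells are known for a low rate of protein synthesis compared with the progenitors they give rise to.

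Between 15225714 and 17073546 reads were counted on genes per *Zeb1*-/- EpCAM+ library and between 14114491 and 15929923 per *Zeb1*-/- EpCAM- library, and the assembly factors took 0.822% to 0.993% of them in the former and 1.16% to 1.41% in the latter. The lowest count of any of the 59 genes in any library was 179 (*Utp20*) and the highest 30463 (*Ncl*), so none was near the limit of detection. The reads carry no molecular identifiers, so these counts are not counts of molecules. Levels are given in CPM, counts scaled to the library size. The sorting marker gene *Epcam* had 187 ± 32.7 CPM (SD, n = 4) in EpCAM+ and 3.86 ± 3.61 CPM (SD, n = 4) in EpCAM- libraries. Reads of the targeted gene *Zeb1* were present in every library, at 23.7, 14.8, 20.9 and 18.8 CPM in EpCAM+ replicates 1 to 4 and 13.4, 14.0, 10.7 and 9.49 CPM in EpCAM- replicates 1 to 4. *Zeb1* was thus higher in EpCAM+ (log2 fold change 0.72 with SE 0.17 and adjusted p = 0.00798), and counts over the whole gene do not show how complete the deletion was in either fraction. The defining LSK genes were present in every library, with *Kit* at 244 to 328 CPM in EpCAM+ and 155 to 245 CPM in EpCAM- libraries, and *Ly6a*, which encodes Sca-1, at 116 to 351 CPM and 15.7 to 71.7 CPM. *Pax5*, a defining gene of B cells, had 0 reads in all 8 libraries, which does not hold for the other B and plasma cell markers. Of 5 tested, 3 were higher in EpCAM+ and 0 lower. *Jchain* had 199 to 3525 CPM in EpCAM+ and 0 to 0.273 CPM in EpCAM- libraries.

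Transcripts of ribosome assembly factors were lower in *Zeb1*-/- EpCAM+ HSPCs across every role class. Of the 59 genes, 56 fell and 0 rose at an adjusted p below 0.05 (quasi-likelihood test of edgeR, adjusted by Benjamini-Hochberg over all tested genes), beside 20.8% of all tested genes lower and 21.8% higher. *Mdn1*, *Nol6* and *Tcof1* did not pass. The estimate was below 0 for 59 of 59 genes, against 48.0% of all tested genes, with 0 genes higher at an unadjusted p below 0.05 and 0 higher by DESeq2 or by limma. The median log2 fold change (EpCAM+ over EpCAM-) was -0.56, so that the typical factor stood at 67.7% of its EpCAM- level, while the median of all tested genes was 0.02. The quartiles of the estimates were -0.67 and -0.44 and the whole range ran from -1.16 (*Bysl*) to -0.17 (*Mdn1*), so the shift was moderate and narrow. Among the 59 genes, 28 were lower by more than 1.5-fold and 1 by more than 2-fold, beside 1132 and 420 of all 13560 tested genes. Bulk values of this kind cannot tell a lower level per cell from fewer cells that express the genes highly.

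**Figure D1:**
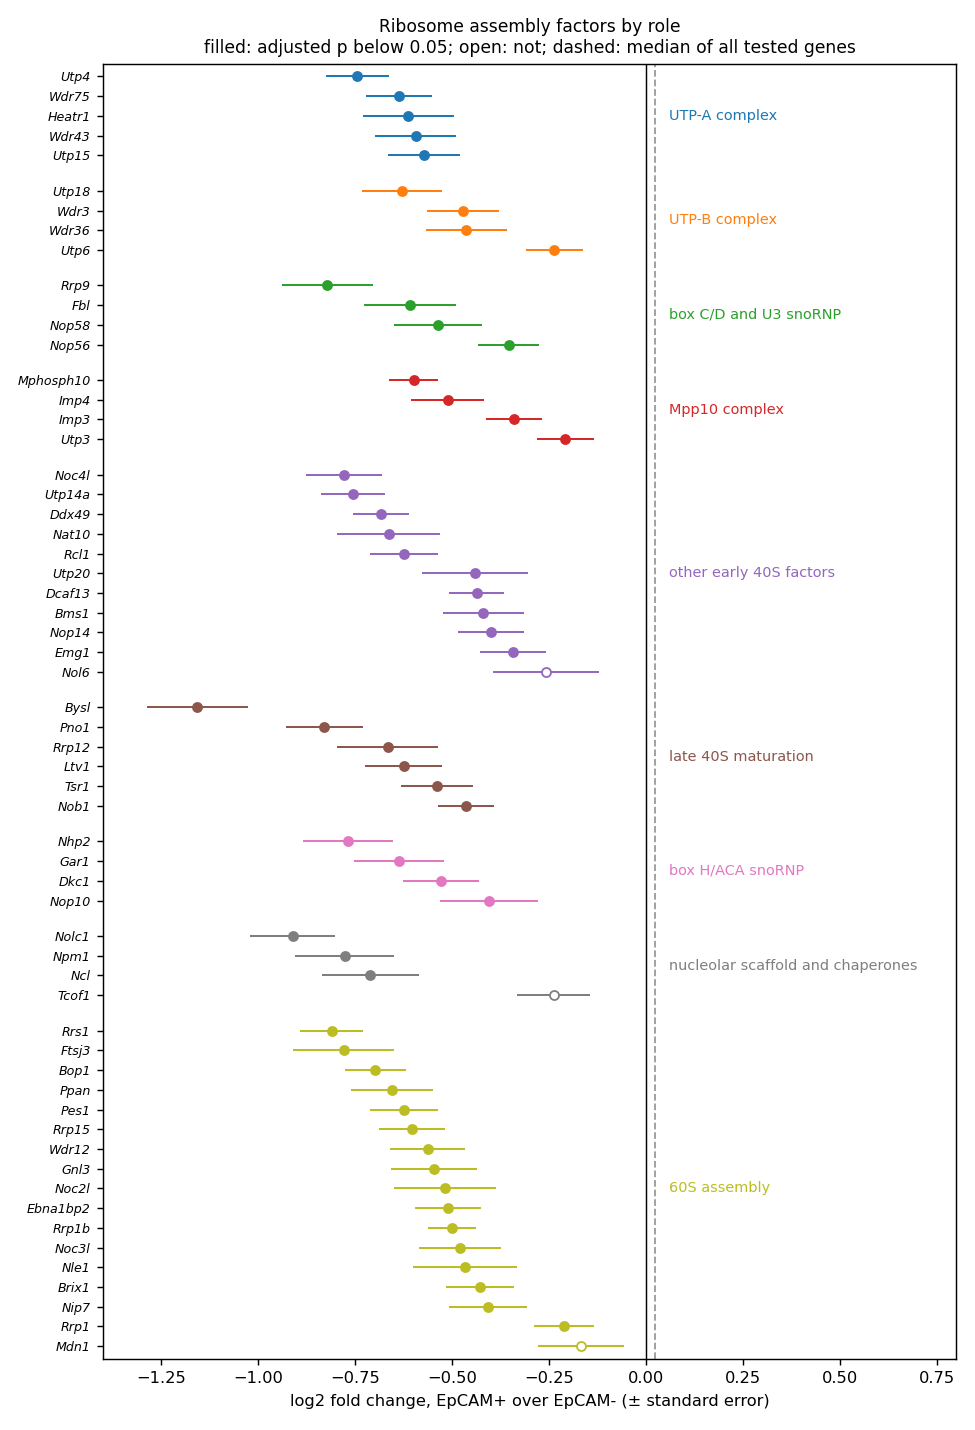
Log2 fold change (EpCAM+ over EpCAM-, x axis, ± standard error) of the 59 genes, ordered within 9 role classes, with filled points for an adjusted p below 0.05, open points otherwise and a dashed line at the median of all tested genes. All 59 points lie left of 0, with *Bysl* at -1.16 the farthest and the open points at *Mdn1*, *Nol6* and *Tcof1*.

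The assembly factors are well expressed, with a median of the mean log2 CPM of 6.81 against 4.48 for all tested genes, and more abundant genes were called lower more often in this comparison. Among the 7846 tested genes whose mean log2 CPM lay in the range spanned by the 59 genes, 3.89 to 10.5, a range set after the values were seen, 29.6% were lower, 16.1% were higher and the median log2 fold change was -0.09. Within the 59 genes, Spearman's rho of the fold change was -0.00701 with mean log2 CPM and 0.178 with gene length. Both coefficients are descriptions across 59 genes that share the same 8 libraries.

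**Figure D2:**
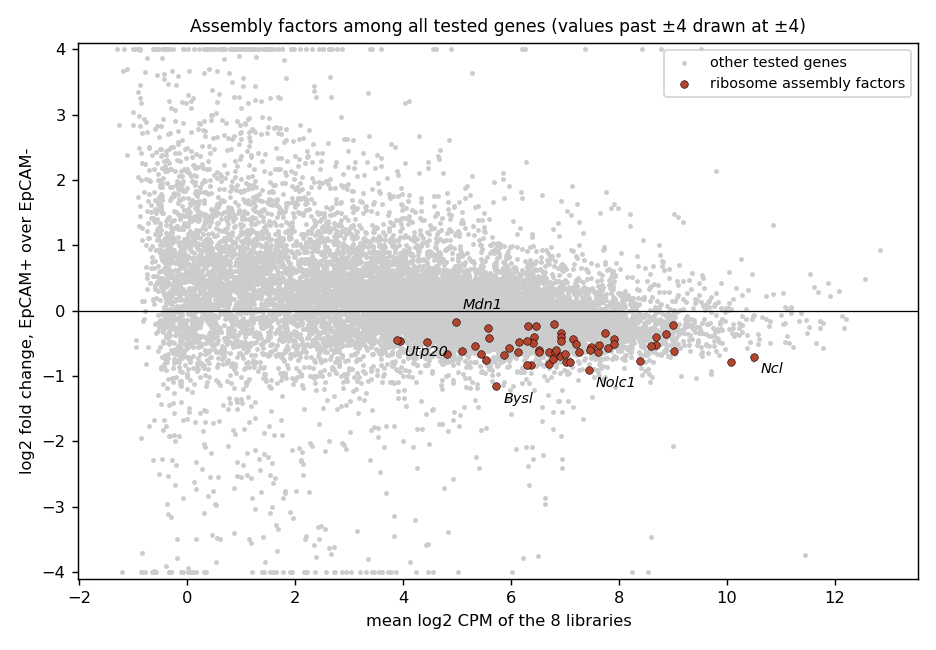
Log2 fold change (EpCAM+ over EpCAM-) against the mean log2 CPM of the 8 libraries for all 13560 tested genes (grey) and the 59 assembly factors (red), with 154 grey points beyond the axis drawn at ±4. The red points form a band below 0 from *Utp20* at the left to *Ncl* at the right.

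The separation held library by library. All 4 EpCAM+ libraries lay below all 4 EpCAM- libraries for 52 of the 59 genes, beside 20.0% of all tested genes, and the fractions overlapped for *Utp3*, *Utp20*, *Bms1*, *Nol6*, *Nop10*, *Tcof1* and *Mdn1*. When libraries with the same replicate number were set against each other, every one of the 59 genes was lower in EpCAM+ in each of the 4 pairs. For the 52 genes without overlap this follows from the separation itself, so the pairs add only the 7 genes that overlapped. The same count over all tested genes was not made. Median differences in log2 CPM were -0.46, -0.49, -0.59 and -0.69 for numbers 1 to 4. The mean log2 CPM of the 59 genes was 6.50, 6.57, 6.65 and 6.56 in EpCAM+ replicates 1 to 4 and 6.96, 7.05, 7.23 and 7.26 in EpCAM- replicates 1 to 4. For these genes the EpCAM- libraries were thus the more spread, with a larger SD of log2 CPM for 56 of 59 genes (median SD 0.176 against 0.108). EpCAM- replicate 4 was the highest of all 8 libraries for 33 genes, EpCAM- replicate 3 for 20 and EpCAM- replicate 2 for 6. At the other end, EpCAM+ replicate 1 was the lowest for 28 genes, replicate 4 for 18, replicate 2 for 10 and replicate 3 for 3. Counts of spread and of the highest or lowest library were not made over all tested genes, so they may not be particular to these 59. The first principal component over all tested genes (70.6% of the variance) ordered EpCAM- replicates 1 to 4 alike, at 34.06, 50.14, 57.59 and 68.66. EpCAM+ replicates 1 to 4 stood at -67.05, -42.22, -51.46 and -49.72.

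**Figure D3:**
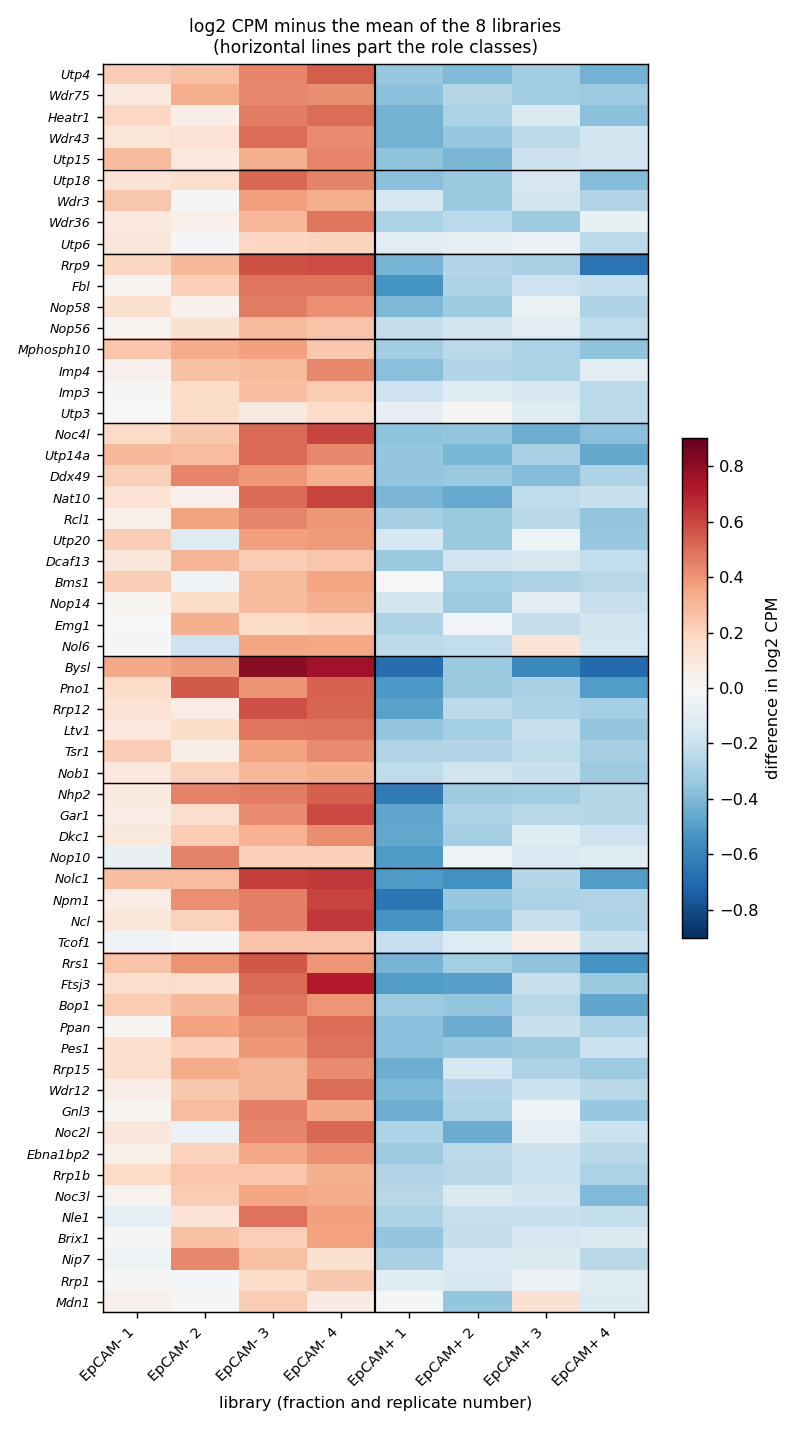
Heat map of log2 CPM minus the mean of the 8 libraries for the 59 genes (rows, parted by role class) in the EpCAM- libraries (left 4 columns) and EpCAM+ libraries (right 4 columns), red above and blue below the mean. EpCAM- replicates 3 and 4 hold the strongest reds, with the highest value of 20 and 33 genes, and the EpCAM+ columns are mostly blue.

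Promoter sequence was compared with the rest of the genome for 3 motifs, since the DNA context of these genes is a feature that the list did not use. RefSeq promoters on GRCm38.p6, 250 bases before to 50 after a start, matched 49 of the 59 genes, and both strands were read. CACGTG, its own reverse complement and the E-box that Myc and Max are known to bind, was found in 11 of 49 genes (22.4%), against 8.09% of the 27025 genes with a promoter in the set and 11.9% of those tested here. Of the 11 sites, each counted once, 9 began after the start and 2 before it. Over all 32851 promoters, of genes tested or not, 13.9% of 2589 sites began after the start. There, a site shared by several promoters of a gene was counted for each. Of 54 promoters of the 59 genes, 48 opened as an annotated transcript does, so some starts are less certain. CAGGTG or its reverse complement CACCTG, the E-box known for Zeb1, was found in 1 of 49 genes (2.04%), against 22.6% of all and 20.5% of tested genes. CCGGAAG or CTTCCGG, the core of sites for ETS-family factors, was found in 21 of 49 genes (42.9%), against 9.93% of all and 20.9% of tested genes. No motif contains another, a gene with several matches counted once, and a match is a description of sequence, not of binding. Genes with CACGTG showed a median log2 fold change of -0.59, and those without it -0.56, and the medians with and without CCGGAAG were -0.60 and -0.56.

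The sites below show the CACGTG motif around the starts of 5 genes from 4 role classes, and 3 sites of CCGGAAG or CTTCCGG, each as at most 30 bases on the strand of the gene with the motif in capitals. Positions count from the RefSeq start, negative before it.
*Pno1*, CACGTG from base 38, minus strand, chr11:17211540-17211564: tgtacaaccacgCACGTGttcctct
*Utp4*, CACGTG from base 16, plus strand, chr8:106893643-106893672: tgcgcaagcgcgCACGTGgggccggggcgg
*Utp18*, CACGTG from base -20, minus strand, chr11:93885769-93885798: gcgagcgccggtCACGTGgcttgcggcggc
*Pes1*, CACGTG from base 3, plus strand, chr11:3963965-3963994: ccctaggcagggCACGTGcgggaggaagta
*Mdn1*, CACGTG from base 39, plus strand, chr4:32657145-32657168: gaattccttcacCACGTGtgtgtc
*Nolc1*, CCGGAAG from base -14, plus strand, chr19:46075822-46075850: cgcgtgtgggaCCGGAAGcaacttctaga
*Nhp2*, CCGGAAG from base -23, plus strand, chr11:51619739-51619767: cacttgaaaacCCGGAAGtgatgtcggag
*Mphosph10*, CTTCCGG from base -12, minus strand, chr7:64392231-64392259: ttggcgtactgCTTCCGGccggccggccg
They come from genes at both ends of the response: *Pno1* and *Nolc1* were among the most lowered genes (log2 fold changes of -0.83 and -0.91), while *Mdn1* with its CACGTG did not pass the test.

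The UTP-A complex binds the start of the precursor RNA first and links its transcription to processing, and its 5 subunits among the 59 genes all fell (median log2 fold change -0.61). *Utp4* (ENSMUSG00000041438, chromosome 8, 106893636 to 106923088), a WD-repeat subunit, gave 86.4, 83.0, 88.3 and 81.3 CPM in EpCAM+ replicates 1 to 4 and 128, 132, 149 and 159 CPM in EpCAM- replicates 1 to 4. The 4 EpCAM+ values lay close together and well under the lowest EpCAM- value, and the log2 fold change, with its standard error (SE), was -0.74 (SE 0.08 and adjusted p = 0.000211). *Utp15* (ENSMUSG00000041747, chromosome 13, 98246845 to 98263041), the least changed of these 5, gave 48.3, 46.6, 54.2 and 55.2 CPM in EpCAM+ and 75.7, 66.4, 77.6 and 84.4 CPM in EpCAM- libraries. Its fractions did not overlap either (log2 fold change -0.57 with SE 0.09 and adjusted p = 0.00107). *Wdr75*, *Heatr1* and *Wdr43*, which encode the other 3, lay between these with -0.64, -0.61 and -0.59. *Nol11*, a further UTP-A subunit on the list of other 40S factors, had -0.40.

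The UTP-B complex, which joins next and chaperones the 5′ end of the precursor, had all 4 of its subunits among the 59 genes lower (median -0.47), from -0.63 to -0.24. For *Utp18* (ENSMUSG00000054079, chromosome 11, 93859243 to 93885766) the EpCAM+ libraries gave 70.3, 72.4, 82.0 and 69.5 CPM and the EpCAM- libraries 99.0, 102, 131 and 124 CPM, a log2 fold change of -0.63 (SE 0.10 and adjusted p = 0.0012) with no overlap. *Utp6* (ENSMUSG00000035575, chromosome 11, 79932321 to 79962390), the least lowered of these 4, gave 82.0, 82.9, 84.7 and 74.3 CPM against 94.0, 86.9, 99.9 and 101 CPM. The lowest EpCAM- library was only just above the highest EpCAM+ library, and the log2 fold change of -0.24 (SE 0.07 and adjusted p = 0.0256) did not pass without EpCAM+ replicate 4 (-0.20), EpCAM- replicate 3 (-0.22) or EpCAM- replicate 4 (-0.21). *Wdr3* and *Wdr36* were lower with -0.47 and -0.46. Further UTP-B subunits, *Tbl3* and *Pwp2* on the list of other 40S factors, had -0.64 and -0.59.

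Box C/D snoRNPs guide the methylation of ribosomal RNA, and the U3 snoRNP among them base-pairs with the precursor to direct its early cleavage. All 4 genes of this class fell (median -0.57). *Rrp9* (ENSMUSG00000041506, chromosome 9, 106475963 to 106485424), the protein particular to the U3 snoRNP, gave 58.6, 65.4, 64.1 and 49.4 CPM in EpCAM+ and 89.8, 96.0, 117 and 118 CPM in EpCAM- libraries. EpCAM+ replicate 4 was the lowest, the fractions were apart, and the log2 fold change was -0.82 (SE 0.12 and adjusted p = 0.000617). The core proteins among the 59 genes are the methyltransferase fibrillarin (*Fbl*, -0.61) and the scaffold pair *Nop58* (-0.54) and *Nop56*. *Nop56* (ENSMUSG00000027405, chromosome 2, 130274430 to 130279313) gave 403, 416, 437 and 397 CPM against 475, 512, 569 and 558 CPM. It was the least lowered of the class, with a log2 fold change of -0.35 (SE 0.08 and adjusted p = 0.00537) and no overlap.

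The Mpp10 complex bridges the U3 RNA and the precursor. Its 4 genes listed here were lower (median -0.43), and they covered a range from -0.60 to -0.21. *Mphosph10* (ENSMUSG00000030521, chromosome 7, 64376527 to 64392268), the scaffold of the complex, gave 73.5, 76.9, 74.9 and 71.0 CPM in EpCAM+ and 108, 115, 118 and 108 CPM in EpCAM- libraries. These were tight groups with a wide gap, and the standard error was correspondingly small (log2 fold change -0.60 with SE 0.06 and adjusted p = 0.000182). Its partners *Imp4* and *Imp3*, which hold the U3 RNA on the precursor, had -0.51 and -0.34. *Utp3* (ENSMUSG00000070697, chromosome 5, 88554462 to 88556090) gave 105, 111, 102 and 93.6 CPM against 111, 124, 117 and 125 CPM. EpCAM+ replicate 2 and EpCAM- replicate 1 stood at the same level, and the log2 fold change of -0.21 (SE 0.07 and adjusted p = 0.0426) passed in just 2 of the 8 fits that left out 1 library, those without EpCAM+ replicate 2 or EpCAM- replicate 1, while the other 6 gave -0.22 to -0.17.

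Of 11 further early 40S factors, 10 fell and *Nol6* did not pass (median -0.44). *Noc4l* (ENSMUSG00000033294, chromosome 5, 110648418 to 110653417), which works with Nop14 in 40S export, gave 106, 107, 100 and 105 CPM in EpCAM+ and 154, 162, 194 and 208 CPM in EpCAM- libraries. The EpCAM+ values hardly varied, the EpCAM- values did, and the log2 fold change was -0.78 (SE 0.10 and adjusted p = 0.000363). *Utp14a*, an activator of the processome helicase, *Ddx49*, a DEAD-box protein, and *Nat10*, an RNA acetyltransferase, followed with -0.76, -0.68 and -0.66. *Ddx49* shares 29.8% of its exon bases with *Homer3* on the opposite strand, whose mean count was 278 against 920. The libraries do not mark strand, so reads from the shared bases cannot be assigned by strand here or in the overlaps of *Bysl* and *Tsr1* given below. *Rcl1*, needed for the early cleavages that free the 18S RNA, had -0.62.

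The remaining early factors changed less. *Utp20* and *Dcaf13* had log2 fold changes of -0.44, the GTPase gene *Bms1* -0.42, *Nop14* -0.40 and *Emg1*, a methyltransferase of the 18S RNA, -0.34. *Utp20*, with the fewest reads, did not pass without EpCAM+ replicate 2 or 4 (-0.40 each) or EpCAM- replicate 3 (-0.40) or 4 (-0.39). *Nol6* (ENSMUSG00000028430, chromosome 4, 41114427 to 41124455), which encodes a processome scaffold, gave 40.5, 40.8, 51.7 and 42.5 CPM in EpCAM+ and 46.9, 41.7, 60.8 and 60.5 CPM in EpCAM- libraries. Within each replicate number the EpCAM+ library was the lower one, but EpCAM+ replicate 3 exceeded EpCAM- replicates 1 and 2. The log2 fold change was -0.26 (SE 0.14 and adjusted p = 0.149). It passed when the replicate number was fitted as a block (-0.25, adjusted p = 0.0426) or without EpCAM- replicate 2 (-0.36, adjusted p = 0.0414).

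**Figure D4:**
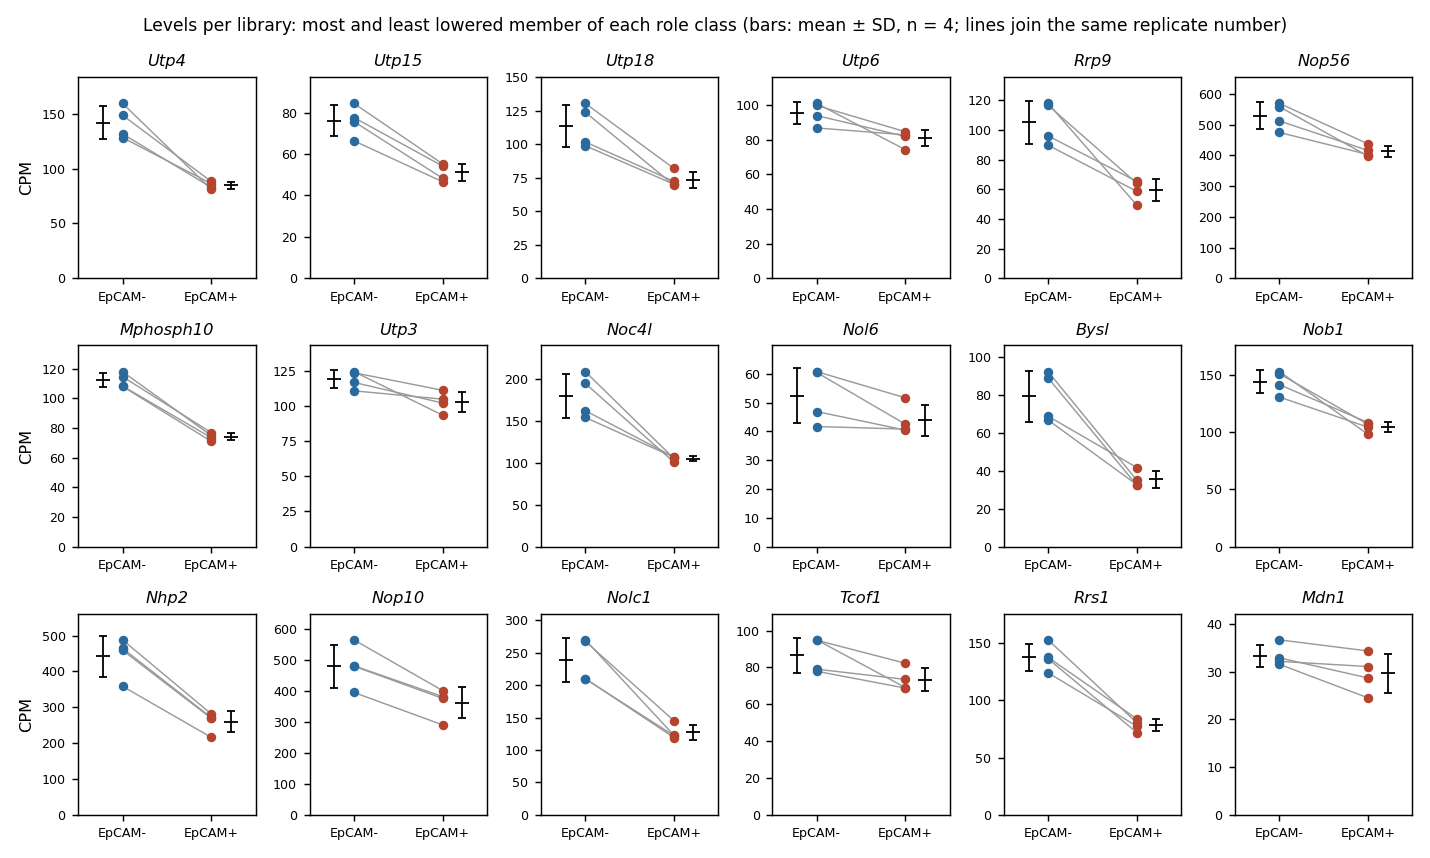
CPM (y axis, from 0) per library of the most and the least lowered gene of each role class in EpCAM- (blue) and EpCAM+ (red) libraries, with the mean ± SD (n = 4) beside each group and lines joining libraries of the same replicate number. Every line falls from left to right; *Bysl* drops from 79.2 to 35.5 CPM on average, while the groups of *Utp3*, *Nol6*, *Nop10*, *Tcof1* and *Mdn1* overlap.

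Late 40S maturation factors act on the particle after the processome has disassembled, and their 6 genes were all lower (median -0.65). *Bysl* (ENSMUSG00000023988, chromosome 17, 47599331 to 47611492), whose product bystin binds the head of the pre-40S particle, gave 32.7, 41.7, 35.1 and 32.4 CPM in EpCAM+ and 66.8, 68.8, 92.3 and 89.0 CPM in EpCAM- libraries. Every EpCAM+ library was below every EpCAM- library by a wide margin, and with a log2 fold change of -1.16 (SE 0.13 and adjusted p = 0.000226), or 44.8% of the EpCAM- level, *Bysl* was the 1 gene past a 2-fold change. It shares 361 exon bases (9.37%) with *Ccnd3* on the opposite strand, which had a mean count of 4336 against 866 for *Bysl*. *Pno1*, a partner of the endonuclease Nob1, *Rrp12*, *Ltv1*, an export adaptor, and *Tsr1*, a GTPase-like factor that blocks premature translation, had -0.83, -0.67, -0.63 and -0.54. *Tsr1* shares 32.3% of its exon bases with *Srr* on the opposite strand, with mean counts of 630 and 106.

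*Nob1* (ENSMUSG00000003848, chromosome 8, 107412486 to 107425051), the nuclease that makes the final cut of the 18S RNA, was the least lowered of the late class. It gave 104, 108, 107 and 97.9 CPM in EpCAM+ and 130, 141, 151 and 153 CPM in EpCAM- libraries. The groups did not overlap, and the log2 fold change was -0.46 (SE 0.07 and adjusted p = 0.000881).

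Box H/ACA snoRNPs guide pseudouridylation, and the same proteins hold the RNA of telomerase. All 4 genes fell (median -0.58). *Nhp2* (ENSMUSG00000001056, chromosome 11, 51619735 to 51623714) gave 216, 269, 271 and 282 CPM in EpCAM+ and 359, 459, 465 and 488 CPM in EpCAM- libraries. Replicate 1 was the lowest of each fraction, the fractions were apart, and the log2 fold change was -0.77 (SE 0.11 and adjusted p = 0.000769). *Gar1* and *Dkc1*, the latter encoding the pseudouridine synthase dyskerin, had -0.64 and -0.53. *Nop10* (ENSMUSG00000027133, chromosome 2, 112261926 to 112263269), the smallest protein of the complex, gave 290, 400, 375 and 381 CPM against 394, 564, 479 and 480 CPM. Here too replicate 1 was low in both fractions, so that EpCAM- replicate 1 fell below EpCAM+ replicate 2. The log2 fold change of -0.41 (SE 0.13 and adjusted p = 0.0254) did not pass without EpCAM+ replicate 1 (-0.32), EpCAM- replicate 2 (-0.33) or EpCAM- replicate 3 (-0.41).

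The nucleolar scaffold and chaperone class holds the most abundant transcripts and had the lowest median, -0.74, with 3 of 4 genes lower. *Nolc1* (ENSMUSG00000015176, chromosome 19, 46075863 to 46085530), a chaperone that carries snoRNPs to the nucleolus, gave 122, 119, 145 and 123 CPM in EpCAM+ and 210, 210, 268 and 270 CPM in EpCAM- libraries. Its EpCAM+ level was 53.2% of the EpCAM- level (log2 fold change -0.91 with SE 0.11 and adjusted p = 0.000291), with no overlap. *Npm1*, the histone and ribosomal protein chaperone nucleophosmin, had 827 ± 96.9 CPM (SD, n = 4) in EpCAM+ and 1418 ± 215 CPM (SD, n = 4) in EpCAM- libraries, a log2 fold change of -0.78. *Ncl*, which encodes nucleolin, had 1137 ± 110 CPM and 1861 ± 308 CPM (SD, n = 4 each), a log2 fold change of -0.71. *Tcof1* (ENSMUSG00000024613), whose product treacle supports RNA polymerase I, did not follow its class. It gave 68.8, 73.5, 82.3 and 69.1 CPM in EpCAM+ and 77.9, 79.0, 94.7 and 95.0 CPM in EpCAM- libraries, and EpCAM+ replicate 3 stood above EpCAM- replicates 1 and 2. The log2 fold change was -0.24 (SE 0.09 and adjusted p = 0.0631), and it passed with the replicate block (-0.24, adjusted p = 0.0247) and without EpCAM+ replicate 3 (-0.30), EpCAM- replicate 1 (-0.29) or EpCAM- replicate 2 (-0.29).

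The 60S class is the largest, with 17 genes, of which 16 fell and *Mdn1* did not pass (median -0.52). *Rrs1* (ENSMUSG00000061024, chromosome 1, 9545408 to 9547455), which brings the 5S RNA particle into the pre-60S, gave 77.5, 83.9, 80.5 and 71.9 CPM in EpCAM+ and 124, 137, 153 and 136 CPM in EpCAM- libraries. It had the smallest adjusted p of the 59 genes (0.000179) and a log2 fold change of -0.81 (SE 0.08), with no overlap. The PeBoW complex, which processes the 5.8S and 28S RNAs, was lowered as a whole, with *Bop1* at -0.70, *Pes1* at -0.62 and *Wdr12* at -0.56. *Ftsj3*, a methyltransferase, *Ppan* and *Rrp15* had -0.78, -0.66 and -0.60.

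The other 60S genes formed a graded series. *Gnl3*, which encodes the nucleolar GTPase nucleostemin, *Noc2l*, *Ebna1bp2* and *Rrp1b* had log2 fold changes of -0.55, -0.52, -0.51 and -0.50, and *Noc3l*, *Nle1*, *Brix1* and *Nip7* had -0.48, -0.47, -0.43 and -0.41. *Nle1* did not pass without EpCAM- replicate 3 (-0.38). *Rrp1* was close to the threshold with -0.21 (adjusted p = 0.0496): it did not pass without any 1 of the EpCAM+ replicates (-0.23 to -0.20) or without EpCAM- replicate 3 (-0.20) or 4 (-0.17). Its paralogue *Rrp1b* fell with a standard error of 0.06 and passed in all 8 such fits.

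*Mdn1* (ENSMUSG00000058006, chromosome 4, 32657119 to 32775217) encodes the giant ATPase midasin, which strips assembly factors from the pre-60S, and was the least lowered of the 59 genes. It gave 31.1, 24.5, 34.3 and 28.7 CPM in EpCAM+ and 32.1, 31.5, 36.7 and 32.9 CPM in EpCAM- libraries. The groups overlapped, and the log2 fold change of -0.17 (SE 0.11 and adjusted p = 0.243) passed in none of the fits without 1 library (-0.25 to -0.09). Its partner in that step, *Nle1*, lay at 72.3% of its EpCAM- level.

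Levels per length spanned a far wider range than the changes did. In EpCAM- libraries *Npm1* (532 CPM per kb of exons), *Nop10* (432) and *Nhp2* (386) had the highest levels per kb, and *Mdn1* (1.52), *Utp20* (1.70) and *Heatr1* (5.37) had the lowest. In EpCAM+ libraries *Nop10* (326 CPM per kb) stood above *Npm1* (310). Both ends of this order held genes that fell without overlap, such as *Npm1* and *Heatr1*, and genes whose fractions overlapped, such as *Nop10* and *Mdn1*. *Nop10* passed the test despite its overlap, and *Mdn1* did not.

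Most other genes of the pathway were lower as well. Of 91 further assembly factors on lists written for this comparison, 90 were tested (*Wdr74* had too few reads), 63 fell, 0 rose and the median log2 fold change was -0.36. The estimate was below 0 for 89 of them, with 0 higher at an unadjusted p below 0.05, 0 higher by DESeq2 or limma, and *Kri1* the 1 gene above 0 (log2 fold change 0.20, adjusted p = 0.316). All 4 EpCAM+ libraries lay below all 4 EpCAM- libraries for 64 of the 90, beside 20.0% of all tested genes. Over all tested genes 20.8% were lower, 21.8% were higher and 48.0% had an estimate below 0. Among 29 other 40S factors, 16 were lower (median -0.30), led by *Nop9* (89.1 ± 1.16 against 147 ± 16.6 CPM; SD, n = 4), *Wdr46* (77.7 ± 4.44 against 133 ± 17.7 CPM) and *Tbl3*, a UTP-B subunit (76.5 ± 4.22 against 119 ± 12.8 CPM), with log2 fold changes of -0.73, -0.77 and -0.64.

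Among 38 tested 60S factors outside the 59 genes, 31 were lower (median -0.46). *Mrto4*, a placeholder for the ribosomal stalk, fell from 155 ± 16.4 to 85.2 ± 6.57 CPM (SD, n = 4), a log2 fold change of -0.86, and the GTPase genes *Gtpbp4* and *Lsg1* had -0.57 and -0.55. The nuclear exosome, which trims the 5.8S precursor, had 10 of 13 genes lower (median -0.36), with *Exosc1* at -0.50, *Exosc9* at -0.44 and *Exosc8* at -0.53. Proteins of RNase MRP and RNase P, the enzymes that cut ribosomal and transfer RNA precursors, had 6 of 10 genes lower (median -0.31), with *Rpp40* at -0.70, *Pop1* at -0.68 and *Pop7* at -0.39. The difference between the lists' medians was not tested.

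**Figure D5:**
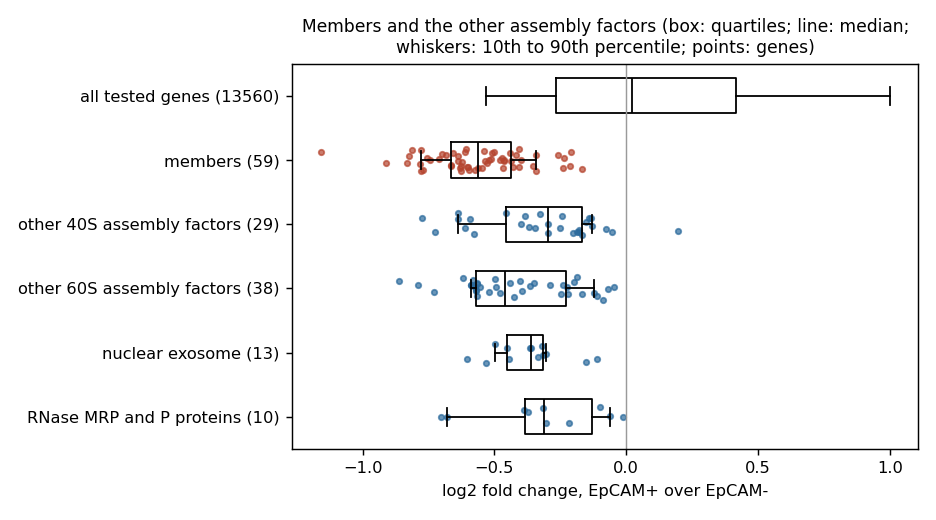
Log2 fold change (EpCAM+ over EpCAM-) of all 13560 tested genes, the 59 genes and 4 lists of other assembly factors (numbers of genes in parentheses), with boxes for the quartiles, lines for the medians, whiskers from the 10th to the 90th percentile and points for single genes. The medians are 0.02 for all tested genes, -0.56 for the 59 genes, -0.30, -0.46, -0.36 and -0.31 for the other lists.

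Markers of cell state and of other cells differed between the fractions as well. Of 10 stem and progenitor markers, 8 were higher in EpCAM+ libraries (summed level 2640 to 2840 CPM against 1400 to 2190 CPM), among them *Ly6a* (201 against 41.3 CPM) and *Kit* (285 against 208 CPM). *Cd34* (993 against 819 CPM) and *Cd48* (371 against 462 CPM) did not pass. They had the highest mean levels of that list in both fractions, so the sum is not that of the higher genes alone. Of 10 proliferation genes, 7 were lower and 0 higher by edgeR (2240 to 2530 against 2790 to 3290 CPM), with 0 higher at an unadjusted p below 0.05, while *Mki67*, *Top2a* and *Pcna* did not pass. Neutrophil and monocyte markers had 4 of 9 tested genes lower and 1, *Lyz2*, higher (1360 to 2020 against 10300 to 16300 CPM). Most of the difference in that sum came from *Mpo* (781 against 10435 CPM) and *Elane* (63.3 against 1836 CPM). *Ltf*, *Camp*, *S100a8* and *S100a9* did not pass. Erythroid and megakaryocyte markers had 5 of 8 lower (192 to 577 against 2150 to 7070 CPM), with most of the EpCAM- sum from *Car1* (mean 3443 CPM). Mast cell and basophil markers had 3 of 5 lower (68.3 to 91.2 against 231 to 479 CPM). In the other direction, 3 of 5 tested B and plasma cell markers were higher (289 to 3680 against 48.4 to 84.6 CPM), as were 6 of 7 dendritic cell markers (400 to 4730 against 103 to 160 CPM). The dendritic cell sum was mostly *H2-Ab1* (2622 against 114 CPM). Of 2 tested T and NK cell markers 1 was higher, but the summed levels overlapped (633 to 796 against 685 to 886 CPM) and were mostly *Nkg7* (730 against 797 CPM). Within EpCAM-, replicates 3 and 4, in which the assembly factors were highest, had the lowest *Ly6a* (16.4 and 15.7 CPM, against 71.7 and 61.3 CPM in replicates 1 and 2). The same replicates 3 and 4 had the lowest sums of stem and progenitor markers (1707 and 1403 CPM, against 2164 and 2190 CPM). They had the highest sums of erythroid and megakaryocyte markers (5236 and 7070 CPM, against 2154 and 2328 CPM). *Klf1*, an erythroid transcription factor, stood at 381 and 442 CPM against 191 and 178 CPM. Mast cell and basophil sums were also highest there, and B and plasma and T and NK sums lowest. Sums of neutrophil and monocyte markers (13610 and 10280 CPM, against 16330 and 11210 CPM), dendritic cell markers and proliferation genes did not part these replicates from the others. In EpCAM+ replicates 1 to 4, *Ly6a* had 351, 195, 140 and 116 CPM and the 59 genes a mean log2 CPM of 6.50, 6.57, 6.65 and 6.56. These contrasts were chosen after the values were seen. The B and plasma cell sum was highest in EpCAM+ replicate 1, where *Jchain* had 3525 CPM against 199 to 429 CPM in the other EpCAM+ libraries, and 53 of the 59 genes fell without that library. The part of these cells and states in the lower level of the assembly factors was not tested.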

How the data were processed

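RNA-Seq was available for 8 libraries, 4 of *Zeb1*-/- EpCAM+ and 4 of *Zeb1*-/- EpCAM- LSK cells. RNA was amplified with SMART-Seq v4 and libraries built with a kit that does not mark strand. Per the submitters' processing notes the authors used STAR 2.6.1d, featureCounts 1.5.0-p3, DESeq2 1.20.0 and the build GRCm38.p6. The deposited table holds raw read counts per gene without normalization, which the authors made with featureCounts and which all values here use. Its gene length column, equal to the exon union of GENCODE M21 for 53 of the 59 genes, gave levels per kb. The table also holds FPKM and p-values and fold changes of the authors' own tests between fractions and between single libraries, none of which were used. The strand setting and the treatment of multi-mapping reads are not given in the sources used here.

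Counts were filtered with filterByExpr, scaled by TMM and tested with edgeR 4.0.16 (R 4.3.3) by its quasi-likelihood test (two-sided) without covariates, with Benjamini-Hochberg adjustment over 13560 genes and a threshold of 0.05. Standard errors derive from the F statistic, CPM were scaled by TMM, and log2 CPM used a prior count of 2. The procedure was tested on simulated data. Alternatives were DESeq2 1.42.0, limma 3.58.1 (trend), 3 other scalings, 2 other filters, the replicate number as a block and each library left out. Figures were drawn with matplotlib 3.10.9. The 59 genes, the role classes, the lists of 91 other factors and of markers, and the motifs were chosen with earlier results of these data known. *Mtrex* is *Skiv2l2* in the table. Values in every library are given for the most and least lowered gene of each class and for genes that did not pass. Of each other list, up to 3 lower genes with the smallest adjusted p are named. *Kri1*, *Wdr74*, *Nol11*, *Pwp2*, *Zeb1*, *Klf1*, *Jchain*, *Cd34*, *Cd48*, *Mki67*, *Top2a*, *Pcna*, *Mpo*, *Elane*, *Lyz2*, *Ltf*, *Camp*, *S100a8*, *S100a9*, *Car1*, *H2-Ab1* and *Nkg7* were named after their values were seen.

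The replicate numbers of the titles pair the samples: libraries of the same number deviated together from their fraction means (correlation across genes 0.205 to 0.356 in 4 pairs, against -0.216 to 0.0396 in the 12 other pairs). What the numbers share, and whether each library is 1 mouse, is not given in the sources used here, so the p-values measure the spread between these samples. The main fit left the pairing out, so its spread within a fraction includes differences between replicate numbers. The fit with the number as a block is given at the end. Libraries of the same fraction differed by more than sampling noise (chi-square over its degrees of freedom 11 to 107). Of the 59 genes, 26 share exon bases with another gene, and 2 (*Ddx49* and *Tsr1*) share at least 10% with a gene that has at least 10% of their mean count. Promoters of 10 genes were not used here.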

Additional observations from a re-analysis of the deposited data

Results flagged for a closer look

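In 4 of the 118 groups of 4 libraries that the 59 genes give, 1 library stood apart from the other 3 by Dixon's test, where chance gives about 1 in 20, and all 4 were in EpCAM+. *Bms1* had 48.5 CPM in EpCAM+ replicate 1, against 39.1 to 40.7 CPM in the other 3 libraries of the fraction. *Gar1* had 142 CPM in EpCAM+ replicate 1, against 162 to 165 CPM. *Nolc1* had 145 CPM in EpCAM+ replicate 3, against 119 to 123 CPM. *Nle1* had 12.5 CPM in EpCAM+ replicate 1, against 13.1 to 13.2 CPM. EpCAM+ replicate 1 was thus the highest of its fraction for *Bms1* and the lowest for *Gar1* and *Nle1*. *Bms1*, *Gar1* and *Nolc1* passed in all 8 fits that left out 1 library, and *Nle1* in 7.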

How the results depend on the processing

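Across 16 alternatives to the edgeR fit, between 50 and 58 of the 59 genes were lower, 0 were higher, 59 of 59 estimates were below 0 and the median log2 fold change lay between -0.62 and -0.48. DESeq2, limma and DESeq2's size factors gave 56 lower genes each, both other filters 54, and upper-quartile scaling and library totals 51 each. Those 2 scalings moved the median of all genes to 0.11 and 0.10 and the calls over all genes to 2083 lower and 3642 higher, and to 2066 lower and 3476 higher, against 2818 lower and 2961 higher. Relative to that median the 59 genes stood at -0.58 in both, against -0.58 with TMM. *Rrp1*, *Utp3*, *Utp6*, *Utp20* and *Nop10* did not pass with either scaling. Without 1 library, 50 to 57 genes were lower (fewest without EpCAM- replicate 3, and 53 without EpCAM+ replicate 1), 54 to 67 of the other assembly factors were lower, and 50 of the 59 genes passed in all 8 fits. With the replicate number as a block, 58 of the 59 genes were lower with a median of -0.56, *Nol6* and *Tcof1* passing in addition and *Mdn1* not (adjusted p = 0.112), and 67 of the other assembly factors were lower. The block changed no other call among the 59 genes. Each of the 59 genes had at least 179 reads in every library, and floors were not needed. The cause of the calls that changed was not tested.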
